A study of Mus musculus with 27 samples.

Results

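The early response of parental NMuMG cells to TGF-β was read from 4 RNA-seq libraries, 2 of untreated cells and 2 of cells given TGF-β for 8 h. They were chosen as the parental RNA libraries of these 2 groups, 4 of 27 samples and 4 of 18 RNA samples of the series. NMuMG cells are an immortal epithelial line from the normal mouse mammary gland, and parental means that the cells carried no shRNA. A dose between 1 and 5 ng/ml of TGF-β is stated in the labels. The untreated libraries carry no dose, and the labels name no genetic change in either group. Another parental group, 24 h of TGF-β (2 libraries), and cells with a control shRNA at the same 2 time points (4 libraries) are set beside the 8 h values. The cells are a single cultured line, so the values describe that line and not the gland.

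TGF-β binds a pair of receptor kinases at the cell surface, which phosphorylate Smad2 and Smad3. These enter the nucleus with Smad4 and act on target genes together with partners such as AP-1. In epithelial cells the pathway arrests the cell cycle and starts epithelial-mesenchymal transition (EMT), in which cells lose junctions, reorganise actin and deposit matrix.

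The values are FPKM, read fragments scaled to the length of the transcript and to the size of the library, as the authors deposited them, so genes can be compared in level. Differences are 8 h minus untreated on the log2(FPKM + 1) scale, on which a gene near or under 1 FPKM shows less than its true fold. A gene was called when limma's Benjamini-Hochberg adjusted p was under 0.05, and a call of at least 2-fold also needed a difference of at least 1 on that scale. Of 11309 genes that reached 1 FPKM in 2 or more of the 6 parental libraries, 54.5% were called, 22.4% higher and 32.1% lower. The median size of the difference over called genes was 0.34 in either direction. At least 2-fold, 4.3% were called, with 228 genes (2.02%) higher and 258 genes (2.28%) lower, and 37 genes rose and 25 fell by 2 or more on the log2 scale. The split of all calls depends on the scaling. Calls were 41.1% higher as deposited, 49.7% after quantile normalization, 48.2% after median of ratios scaling and 58.8% after the 10 highest genes were left out of the library totals. With a pseudocount of 0.1 in place of 1, 777 genes were called at the 2-fold level, 368 higher and 409 lower. At that level the 3 scalings gave 247, 248 and 283 higher genes and 233, 233 and 209 lower genes.

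No read counts come with the values. Steps between low values put the depth of the 4 libraries at 92.8% to 104% of the first untreated one. Replicates correlated across genes with r of at least 0.986. The 10 highest genes held 25.0% to 29.6% of the summed FPKM. Of the 228 genes with a 2-fold rise, the first 8 h library was the higher of the pair in 218. Of the 258 with a 2-fold fall, it was the lower in 243. It thus lay further from the untreated cells than the second in most of these genes. Over all tested genes it was the higher of the pair in 43.8%. Without the first 8 h library, 190 genes were called higher and 193 lower at the 2-fold level, and without the second, 279 and 341. The difference between the 2 libraries was not tested. Of 126 genes picked by rule for naming, Twist1 alone changed direction when an 8 h library was left out, and only without the second one.

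The label of the cells was checked against markers. Krt8, a keratin of simple epithelia, was at 2031 and 2024 FPKM in the untreated libraries and 2599 and 2583 FPKM in the 8 h libraries. Its partner Krt18 was at 1776 and 1719.7 FPKM in the untreated libraries and 1958 and 2059.9 FPKM in the 8 h libraries. Cdh1, which encodes E-cadherin, stood at 113 and 119 FPKM in untreated cells. Krt19 was high as well, at 1005 and 982 FPKM in untreated cells. Epcam, an epithelial adhesion molecule, was at 0.383 and 0.319 FPKM without and 0.911 and 1.17 FPKM with TGF-β and below the filter, and Cldn3, Cldn7 and Esrp1 were under 1 FPKM in each of the 4 libraries. The summed FPKM of 6 endothelial markers was 1.47 to 1.83 in untreated cells and 2.08 to 2.18 at 8 h, and that of 6 haematopoietic markers 1.62 to 1.68 and 1.44 to 1.60. The sum of 5 muscle markers was 68.8 to 74.0 without TGF-β and 76.5 to 77.6 at 8 h, most of it Actc1. The sum of 4 adipocyte markers was 4.72 to 5.20 and 5.31 to 5.85, and that of 5 neural markers 7.90 to 7.94 and 6.78 to 7.39. A sum over 6 fibroblast markers went from 3.96 to 4.46 without TGF-β to 6.81 to 7.23 at 8 h, while 4 of these markers, Pdgfra, Pdgfrb, Thy1 and Lum, stayed under 1 FPKM and Col1a1 made up most of the difference. The part of these cell types in the results was not tested. In bulk RNA, fewer cells of a type and less RNA per cell cannot be told apart.

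The genes that rose most covered a protease, a metabolic enzyme, matrix genes and a transcription factor. Ctsw, which encodes the protease cathepsin W, had 0.811 and 0.751 FPKM in the untreated libraries and 34.5 and 26.9 FPKM in the 8 h libraries. Both treated libraries lay far above both untreated ones (4.14 ± 0.104 (SE), adjusted p = 1.08e-05), a ratio of mean FPKM of 39.3. Ass1, which encodes argininosuccinate synthase of the urea cycle and arginine synthesis, went from 3.45 and 3.28 FPKM without TGF-β to 57.0 and 36.6 FPKM at 8 h (3.42 ± 0.173 (SE), adjusted p = 3.42e-05). The adhesion receptor gene Gpr123 (Adgra1) had a difference of 3.30, the cornified envelope gene Lce1f 2.95, the transcriptional cofactor gene Lmcd1 2.72, and the lubricin gene Prg4 2.64. Lce1f and Prg4 started under 1 FPKM, at 0.235 and 0.0584 FPKM and 0.175 and 0.123 FPKM. Groups that did not overlap were a condition for choosing the 12 leading rises and 12 leading falls. In the same way, both 8 h libraries lay on one side of both untreated ones for each called gene named in the lists that follow. The calls were made on these same libraries, so this is a description and adds no support to them.

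Gadd45a, which encodes a stress and growth arrest protein, went from 4.94 and 4.34 FPKM without TGF-β to 34.3 and 21.8 FPKM at 8 h (2.33 ± 0.179 (SE), adjusted p = 9.77e-05). Cldn4, a tight junction claudin, was nearly silent in untreated cells at 0.0923 and 0.147 FPKM and reached 6.61 and 4.15 FPKM at 8 h (2.48 ± 0.174 (SE), adjusted p = 7.09e-05).

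**Figure D1:**
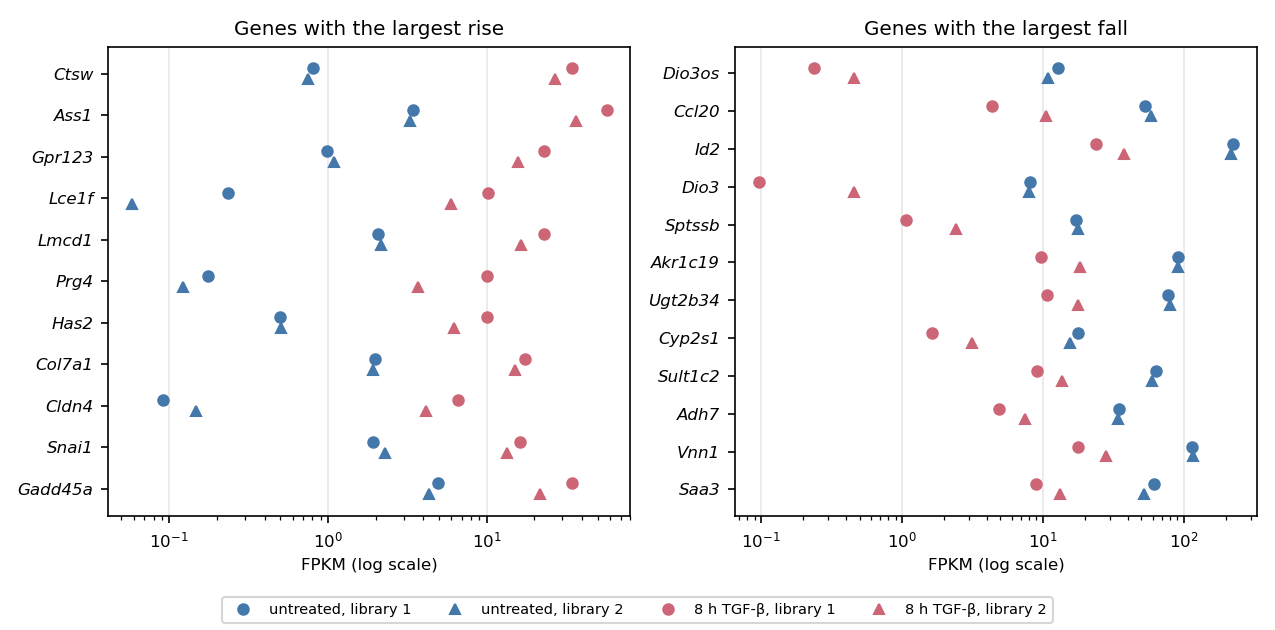
FPKM of 11 of the 12 leading rises (left) and the 12 leading falls (right) at 8 h, on a log scale, with 1 point for each of the 2 untreated (blue) and 2 TGF-β (red) libraries. The red points lie apart from the blue ones for each gene, and the first 8 h library (circles) is the further one in each row.

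The largest falls were in a chemokine, a thyroid hormone enzyme, an inhibitor of transcription factors and detoxifying enzymes. Id2, which encodes an inhibitor of helix-loop-helix transcription factors, had 224 and 218 FPKM in the untreated libraries and 23.9 and 37.5 FPKM in the 8 h libraries. Both treated libraries were far below both untreated ones (-2.84 ± 0.180 (SE), adjusted p = 5.26e-05), and the mean was 7.19 times lower. Ccl20, a chemokine gene, went from 53.2 and 58.6 FPKM without TGF-β to 4.36 and 10.5 FPKM at 8 h (-2.86 ± 0.307 (SE), adjusted p = 0.000343).

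Dio3, the deiodinase that inactivates thyroid hormone, had 8.06 and 7.98 FPKM in the untreated libraries and 0.0960 and 0.454 FPKM in the 8 h libraries, a difference of -2.84. Its neighbour on the opposite strand, Dio3os, had 12.7 and 10.9 FPKM in the untreated libraries and 0.238 and 0.460 FPKM in the 8 h libraries, a difference of -3.25. Both genes were near 0 in each 8 h library. Dio3 lies on the plus strand of chromosome 12 of mm9 from 111517278 to 111519307 and Dio3os on the minus strand from 111513594 to 111516278. The annotated spans are neighbours that do not overlap. Sptssb, a small subunit of the enzyme that starts sphingolipid synthesis, fell by 2.80.

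Of the 12 largest falls, 5 were enzymes that modify foreign or small lipophilic molecules. Akr1c19, an aldo-keto reductase, went from 90.3 and 91.0 FPKM without TGF-β to 9.74 and 18.4 FPKM at 8 h (-2.67 ± 0.242 (SE), adjusted p = 0.000178). Ugt2b34, a glucuronosyltransferase, went from 76.8 and 79.8 FPKM without TGF-β to 10.8 and 17.7 FPKM at 8 h (-2.42 ± 0.191 (SE), adjusted p = 0.000107). The cytochrome P450 Cyp2s1 had a difference of -2.42, the sulfotransferase Sult1c2 -2.38 and the alcohol dehydrogenase Adh7 -2.32. Vnn1, a pantetheinase, fell by 2.30 from 113 and 115 FPKM, and Saa3, an acute phase protein, by 2.28 from 61.8 and 51.9 FPKM. No list of such enzymes was drawn up, so this is a count over the 12 genes and not a test of the group. Akr1c19, Ugt2b34 and Lce1f belong to families with close copies, and how the authors' counting shared reads between copies is not given in the sources used here, so their levels are uncertain to that extent.

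**Figure D2:**
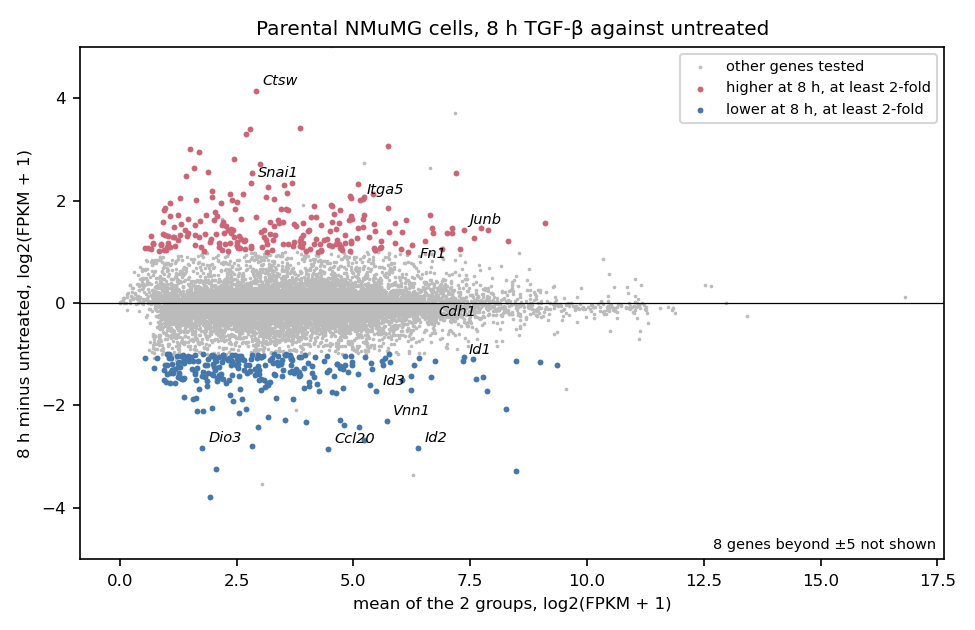
Difference at 8 h (vertical axis, log2) against the mean of the 2 groups (horizontal axis, log2) for the tested genes, with those changed at least 2-fold in red (228 higher) and blue (258 lower). Most genes lie close to 0, Junb is a labelled rise at high level, and Id2 is the lowest labelled fall at high level. 8 genes beyond the axis are not shown.

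Promoter sequences of 5 genes are given because they show what the letters around 4 risen genes and the strongly lowered Id2 look like. Each is the 250 bases before the RefSeq start (promoter table of build GRCm38.p6), placed on mm9 by a single exact match and written 5′ to 3′ on the gene's strand. Capitals mark motifs searched on both strands, namely the Smad elements GTCTAGAC and CAGACA, the AP-1 site TGANTCA, the E-box CACCTG of Snail and Zeb factors, the TEAD motif GGAATG and the CArG box of serum response factor. No motif of the set contains another. The genes were chosen after their values were seen.
Cldn4: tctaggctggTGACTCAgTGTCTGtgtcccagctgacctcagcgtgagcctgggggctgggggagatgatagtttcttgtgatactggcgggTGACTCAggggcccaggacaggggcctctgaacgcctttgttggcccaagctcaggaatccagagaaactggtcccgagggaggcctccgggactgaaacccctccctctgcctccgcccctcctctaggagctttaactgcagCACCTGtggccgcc
Col7a1: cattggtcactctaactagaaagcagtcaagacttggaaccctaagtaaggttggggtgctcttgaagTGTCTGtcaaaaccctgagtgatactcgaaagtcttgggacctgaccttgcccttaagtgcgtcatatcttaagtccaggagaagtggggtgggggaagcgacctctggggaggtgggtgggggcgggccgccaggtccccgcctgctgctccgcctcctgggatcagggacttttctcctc
Zyx: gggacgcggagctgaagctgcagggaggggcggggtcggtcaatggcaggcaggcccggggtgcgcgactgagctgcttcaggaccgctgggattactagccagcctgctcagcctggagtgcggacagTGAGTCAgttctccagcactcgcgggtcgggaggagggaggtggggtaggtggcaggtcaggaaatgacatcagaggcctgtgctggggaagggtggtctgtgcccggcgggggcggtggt
Snai1: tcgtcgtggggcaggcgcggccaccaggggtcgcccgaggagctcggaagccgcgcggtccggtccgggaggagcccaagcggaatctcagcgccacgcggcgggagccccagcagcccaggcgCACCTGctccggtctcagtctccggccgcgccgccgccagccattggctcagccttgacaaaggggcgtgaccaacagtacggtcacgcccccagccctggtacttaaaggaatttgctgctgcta
Id2: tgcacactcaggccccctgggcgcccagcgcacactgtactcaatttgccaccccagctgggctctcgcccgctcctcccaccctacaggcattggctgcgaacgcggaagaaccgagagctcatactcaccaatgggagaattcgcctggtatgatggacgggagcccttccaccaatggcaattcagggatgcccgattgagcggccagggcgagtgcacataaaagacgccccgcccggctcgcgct
They lie at chr5:135422805-135423054 (minus strand), chr9:108855381-108855630 (plus), chr6:42299577-42299826 (plus), chr2:167363445-167363694 (plus) and chr12:25780958-25781207 (minus) of mm9, each upstream of its gene.

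The Cldn4 promoter held 2 AP-1 sites, 1 CAGACA on the minus strand next to the first of them, and 1 E-box close to the start. Col7a1 held 1 CAGACA on the minus strand, Zyx 1 AP-1 site and Snai1 1 E-box, and the Id2 window held none of the motifs. Over all 32851 promoters of the table, which run 250 bases before to 50 after the start, 7.81% held an AP-1 site, 21.0% CAGACA, 20.2% the E-box, 14.7% the TEAD motif, 1.63% a CArG box and 0.213% the Smad palindrome. A match is a description of letters. Ctsw, Pmepa1, Ldlrad4 and Id1 had no entry. Promoters were matched for 164 of the 228 higher genes and 9033 of the 11309 tested genes. Motif shares would leave out the other genes of each set, so the sets are not compared here.

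**Figure D3:**
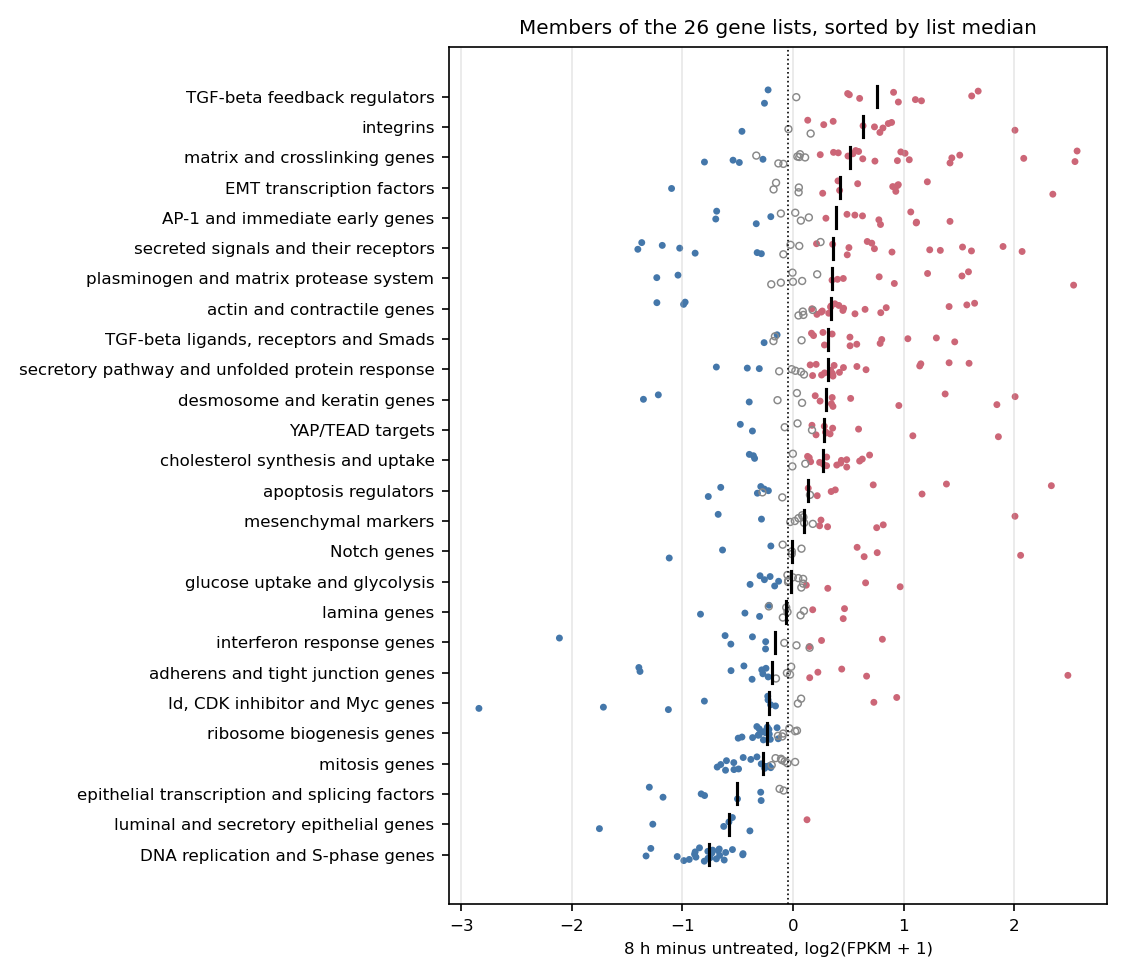
Differences at 8 h (horizontal axis, log2) of the tested members of 26 gene lists, sorted by list median, with called rises in red, called falls in blue, members that were not called as open circles, list medians as bars and the median of all tested genes (-0.05) as a dotted line. The feedback regulators have the highest median and the DNA replication genes the lowest.

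Members of the TGF-β pathway itself were read first. Of 18 tested ligands, receptors and Smads, 13 were higher and 2 lower, with a median difference of 0.32 against -0.05 over all tested genes. The type I receptor gene Acvr1 had 19.2 and 19.8 FPKM in the untreated libraries and 58.3 and 52.7 FPKM in the 8 h libraries (1.46 ± 0.0586 (SE), adjusted p = 2.14e-05). The latent TGF-β binding protein gene Ltbp1, whose product holds the ligand in the matrix, had a difference of 1.04. Its family member Ltbp2 had 1.30 and the type II BMP receptor gene Bmpr2 0.80. The 2 lower members were Tgfbr2, the type II TGF-β receptor, with -0.26, and Smad2 with -0.14. The ligand gene Tgfb1 had 0.52 and the receptor gene Tgfbr1 0.79.

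Feedback regulators, which dampen Smad signalling, had 9 of 12 tested members higher, 4 of them at least 2-fold, and 2 lower, with a median of 0.76. Pmepa1, which encodes a membrane protein that sequesters receptor Smads, had 39.0 and 38.6 FPKM in the untreated libraries and 125 and 117 FPKM in the 8 h libraries (1.61 ± 0.0458 (SE), adjusted p = 1.08e-05). Ldlrad4, a close relative with the same role, went from 3.40 and 3.09 FPKM without TGF-β to 14.2 and 11.1 FPKM at 8 h (1.67 ± 0.106 (SE), adjusted p = 5.21e-05). The nuclear corepressors Ski and Skil had differences of 1.16 and 1.11, the inhibitory Smad gene Smad7 0.95 and the repressor gene Klf10 0.91. Smad6, the inhibitory Smad of the BMP branch, had -0.26 and Fst, an activin antagonist, -0.23.

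Id1, Id2 and Id3, which are targets of BMP signalling and hold cells in an undifferentiated state, all fell. Of 12 tested Id, CDK inhibitor and Myc genes, 8 were lower and 2 higher, with a median of -0.21. Id3 had 86.9 and 73.2 FPKM in the untreated libraries and 22.6 and 24.6 FPKM in the 8 h libraries (-1.71 ± 0.0834 (SE), adjusted p = 3.32e-05), and Id1 had 257 and 220.4 FPKM in the untreated libraries and 107 and 110.3 FPKM in the 8 h libraries (-1.13 ± 0.0699 (SE), adjusted p = 4.97e-05). Among CDK inhibitors, Cdkn2b, the p15 gene, had 0.73, Cdkn1a -0.16, Cdkn1b -0.20 and Cdkn2c -0.80. Cdc25a, the phosphatase that drives S-phase entry, had -0.23, Myc, the growth regulator, -0.23, and Mxd4, which antagonises it, 0.94.

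Of 18 tested AP-1 and immediate early genes, 10 were higher and 4 lower, with a median of 0.39. Junb had 102 and 96.7 FPKM in the untreated libraries and 282 and 253 FPKM in the 8 h libraries (1.42 ± 0.0593 (SE), adjusted p = 2.42e-05). Jun and Fosl2, its partners in AP-1 dimers, had differences of 1.12 and 1.11. The MAP kinase phosphatase gene Dusp5 had 1.06, while its relative Dusp6 had -0.69 and the early growth response gene Egr1 -0.70. Rises and falls thus stood side by side in this list.

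Transcription factors of EMT were mostly higher, 10 of 15 tested, with 1 lower and a median of 0.42. Snai1, the gene of the E-cadherin repressor Snail, went from 1.93 and 2.29 FPKM without TGF-β to 16.3 and 13.5 FPKM at 8 h (2.35 ± 0.116 (SE), adjusted p = 3.32e-05). The transcription factor gene Runx1 had a difference of 1.21, Hmga2, a chromatin protein acting upstream of Snail, 0.95, Sox9 0.94 and Zeb1 0.93. Twist2 was the lower member, with 9.62 and 8.86 FPKM in the untreated libraries and 3.35 and 4.25 FPKM in the 8 h libraries (-1.10 ± 0.0946 (SE), adjusted p = 0.000146). Twist1 was at 1.42 and 1.41 FPKM without and 1.43 and 0.876 FPKM with TGF-β and was not called (adjusted p = 0.253), and its groups overlap.

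Epithelial transcription and splicing factors moved the other way. Of the 9 tested, 7 were called lower and 0 higher by limma, adjusted or not, with a median of -0.50. The splicing regulator Rbm47 had 16.6 and 16.8 FPKM in the untreated libraries and 5.11 and 7.45 FPKM in the 8 h libraries (-1.30 ± 0.136 (SE), adjusted p = 0.00031). The Ets factor genes Ehf and Elf3 fell by 1.18 and 0.50, and the Krüppel-like factor genes Klf5 and Klf4 by 0.83 and 0.80. Of the 19 members, 10 were below the filter, among them Grhl2, Ovol1, Ovol2 and Esrp1.

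Junction genes were split. Of 18 tested adherens and tight junction genes, 9 were lower and 5 higher, with a median of -0.19. Crb3, which builds the apical polarity complex, had 12.2 and 11.2 FPKM in the untreated libraries and 2.99 and 4.83 FPKM in the 8 h libraries (-1.39 ± 0.162 (SE), adjusted p = 0.000484), and Tjp3, a tight junction scaffold, fell by 1.38. Cdh1 fell by 0.37, from 113 and 119 FPKM without TGF-β to 86.3 and 92.9 FPKM at 8 h (adjusted p = 0.000946). Against these, Cldn4 rose as given above, and Ctnnd1, the p120 catenin that holds cadherins at the membrane, had 0.66. Tjp1, which encodes ZO-1, had -0.06 and was not called (adjusted p = 0.484).

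Desmosome and keratin genes were more often higher, with 10 of 16 tested higher and 3 lower and a median of 0.30. Pkp1, a desmosomal plakophilin, had 5.00 and 5.50 FPKM in the untreated libraries and 23.2 and 19.7 FPKM in the 8 h libraries (1.84 ± 0.0860 (SE), adjusted p = 3.04e-05). Jup, which encodes plakoglobin, had 0.96 and Dsp, the desmoplakin gene, 0.36. Krt20, a keratin of intestinal and urothelial cells, had 84.3 and 84.3 FPKM in the untreated libraries and 244 and 198 FPKM in the 8 h libraries (1.37 ± 0.0891 (SE), adjusted p = 5.67e-05). Krt14, a basal keratin, went from 0.653 and 0.447 FPKM without TGF-β to 5.99 and 4.53 FPKM at 8 h (2.01 ± 0.133 (SE), adjusted p = 6.14e-05). The other basal markers Krt5, Trp63 and Oxtr were under 1 FPKM in each of the 4 libraries, and the summed FPKM of 5 basal markers was 3.19 to 3.56 without TGF-β and 7.47 to 8.80 at 8 h, with Krt14 making up most of the difference. The lower members included Ppl, which encodes periplakin, with -1.35. Krt19, a simple epithelial keratin, was among them and went from 1005 and 982 FPKM without TGF-β to 363 and 501 FPKM at 8 h (-1.22 ± 0.154 (SE), adjusted p = 0.000706).

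Over all tested genes, 22.4% were called higher, 32.1% lower and 2.02% higher by at least 2-fold. Of 15 tested mesenchymal markers, 6 were higher and 2 lower, with a median of 0.10, and 1 was higher by at least 2-fold. That gene was Itga5, the fibronectin receptor α5 integrin, with 16.6 and 16.7 FPKM in the untreated libraries and 79.1 and 61.7 FPKM in the 8 h libraries (2.01 ± 0.103 (SE), adjusted p = 3.49e-05). Fn1, which encodes fibronectin, went from 53.0 and 64.4 FPKM without TGF-β to 92.8 and 107 FPKM at 8 h (0.76 ± 0.0980 (SE), adjusted p = 0.000784). Col1a1 had 0.82, Vim, the vimentin gene, 0.31 and Cdh2, which encodes N-cadherin, 0.24. The smooth muscle actin gene Acta2 (0.05, adjusted p = 0.534) and Tagln (0.09, adjusted p = 0.422) were not called. Cdh11, the osteoblast cadherin, was lower at -0.68 and S100a4 at -0.29.

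Matrix genes were higher in 19 of 30 tested and lower in 4, with 8 higher by at least 2-fold and a median of 0.52. Has2, which makes hyaluronan, went from 0.497 and 0.504 FPKM without TGF-β to 9.99 and 6.20 FPKM at 8 h (2.57 ± 0.186 (SE), adjusted p = 7.99e-05). Col7a1, the anchoring fibril collagen, had 1.97 and 1.92 FPKM in the untreated libraries and 17.4 and 15.1 FPKM in the 8 h libraries (2.55 ± 0.0707 (SE), adjusted p = 1.08e-05). Thbs1, which encodes thrombospondin 1, an activator of latent TGF-β, had 13.2 and 14.3 FPKM in the untreated libraries and 72.0 and 52.7 FPKM in the 8 h libraries (2.09 ± 0.131 (SE), adjusted p = 5.08e-05). The crosslinking enzyme genes Lox and Plod2 had 1.51 and 1.01, the fibulin gene Fbln2 1.44 and Col5a1 1.42. The basement membrane genes Lamb3 and Col18a1 had 1.05 and 0.94, and the collagen chaperone gene Serpinh1 0.59. The lower members were Col6a1 (-0.49), Col6a2 (-0.80), Lama5 (-0.54) and Lamc1 (-0.27).

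In the plasminogen and matrix protease system, 9 of 17 tested genes were higher and 2 lower, with a median of 0.35. Timp3, a metalloproteinase inhibitor, had 12.4 and 12.4 FPKM in the untreated libraries and 42.2 and 36.4 FPKM in the 8 h libraries (1.59 ± 0.0715 (SE), adjusted p = 2.89e-05). Adam12, a membrane metalloproteinase, had 1.53, Timp1 1.22 and Plau, the urokinase gene, 0.92. The collagenase gene Mmp13 had -1.23 and Adamts1 -1.04. Integrins, the receptors for matrix, were higher in 10 of 13 tested genes and lower in 1, with a median of 0.63. Itgb5, Itgav and Itgb6, subunits of integrins that can activate latent TGF-β, had 0.86, 0.81 and 0.89, and Itga3, a laminin receptor subunit, had -0.46.

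Actin and contractile genes were higher in 18 of 25 tested and lower in 3, with a median of 0.34. Pdlim7, an actin-binding LIM protein, had 32.5 and 34.5 FPKM in the untreated libraries and 100.2 and 103 FPKM in the 8 h libraries (1.57 ± 0.0421 (SE), adjusted p = 1.08e-05). The cytoplasmic actin gene Actb, often used as a reference gene, went from 1182 and 1144 FPKM without TGF-β to 1748 and 1682 FPKM at 8 h (0.56 ± 0.0521 (SE), adjusted p = 0.000196), and Actn1, an actin crosslinker, had 0.79. Rhob, a small GTPase, and Zyx, the focal adhesion protein zyxin, had 1.64 and 1.41. Rnd3, an atypical small GTPase that loosens stress fibres, went from 38.6 and 39.0 FPKM without TGF-β to 14.0 and 18.2 FPKM at 8 h (-1.23 ± 0.103 (SE), adjusted p = 0.00013), and Lima1, which encodes an actin bundler of epithelial cells, had -0.99 and the myosin kinase gene Mylk -0.98. Of 15 YAP/TEAD targets and factors, 10 were higher and 2 lower, with a median of 0.28. Ctgf, a matricellular growth factor, had 27.6 and 26.3 FPKM in the untreated libraries and 117 and 85.7 FPKM in the 8 h libraries (1.86 ± 0.144 (SE), adjusted p = 9.98e-05), and its relative Cyr61 had 1.08.

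Of 25 tested signals and receptors, 14 were higher and 7 lower, 6 and 4 of them at least 2-fold, with a median of 0.36. Pdgfa, a platelet-derived growth factor gene, had 17.0 and 17.5 FPKM in the untreated libraries and 82.4 and 69.2 FPKM in the 8 h libraries (2.07 ± 0.0783 (SE), adjusted p = 1.86e-05). Pdgfb had 1.61, Inhba, the activin A subunit, 1.90, the cytokine gene Il11 1.53, Vegfa 1.33 and Vegfc 1.24. The fibroblast growth factor gene Fgf1 had -1.40, its epithelial receptor gene Fgfr2 -1.02, Wnt4 -1.37 and Bmp4 -1.18.

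Notch genes had 4 of 11 tested members higher and 3 lower, beside 22.4% and 32.1% over all tested genes. Their median of -0.01 turned to 0.05 under quantile normalization and to 0.03 and 0.08 under the other 2 scalings. Jag1, a Notch ligand, had 13.3 and 14.8 FPKM in the untreated libraries and 69.3 and 54.5 FPKM in the 8 h libraries (2.06 ± 0.108 (SE), adjusted p = 3.53e-05), and the receptor gene Notch1 went from 5.94 and 6.68 FPKM without TGF-β to 1.97 and 2.80 FPKM at 8 h (-1.12 ± 0.122 (SE), adjusted p = 0.000366). The target genes Hes1 (-0.01) and Nrarp (0.08) were not called.

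Genes of DNA replication were lower throughout. All 24 tested S-phase genes were called lower and 0 higher by limma, adjusted or not, with differences from -1.33 to -0.45 and a median of -0.76. They were called lower under each of the 3 other scalings as well. Cdc6, which loads the replicative helicase, had 9.88 and 9.87 FPKM in the untreated libraries and 3.14 and 3.52 FPKM in the 8 h libraries (-1.33 ± 0.0737 (SE), adjusted p = 3.68e-05). Uhrf1, which maintains DNA methylation at replication forks, fell by 1.29, Ccne2, a cyclin E gene, by 1.05 and Mcm3, a helicase subunit, by 0.99.

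Genes of mitosis had moved less at this time, with 15 of 22 lower and a median of -0.27. By limma 0 were higher, adjusted or not, and 18 were lower at an unadjusted p under 0.05. Cdk1, the mitotic kinase, had 82.1 and 76.7 FPKM in the untreated libraries and 48.2 and 49.8 FPKM in the 8 h libraries (-0.69 ± 0.0530 (SE), adjusted p = 9.98e-05), and Cenpa, the centromere histone, was not called at 0.02. The median at 24 h was -1.41 for the mitosis list and -1.12 for the S-phase list. Ribosome biogenesis genes were lower in 18 of 24 tested and higher in 0 by limma, adjusted or not, with a median of -0.24, although 2 were called higher after the 10 highest genes were left out of the library totals. Nop56, a box C/D particle protein, had the largest fall of that list at -0.50.

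Genes of cholesterol synthesis and uptake were higher in 15 of 21 tested and lower in 3, with a median of 0.27 and no member at the 2-fold level. Insig1, which controls sterol sensing, had 30.4 and 29.7 FPKM in the untreated libraries and 53.0 and 45.6 FPKM in the 8 h libraries (0.69 ± 0.0692 (SE), adjusted p = 0.000256). Hsd17b7 and Cyp51, enzymes of the pathway, had 0.63 and 0.60. The lower members included Srebf1 (-0.40), which encodes a lipogenic transcription factor, and Dhcr7 (-0.35). The median of the list at 24 h was -0.60. Hmgcs1 is listed at 0 in each library and was not tested.

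Genes of glucose uptake and glycolysis had 4 of 18 members higher and 6 lower, close to the 22.4% and 32.1% over all tested genes. Their median of -0.02 turned to 0.07 under quantile normalization and to 0.02 and 0.07 under the other 2 scalings. Hk2, a hexokinase, had 6.68 and 7.28 FPKM in the untreated libraries and 15.3 and 13.9 FPKM in the 8 h libraries (0.97 ± 0.0624 (SE), adjusted p = 5.57e-05). Secretory pathway and unfolded protein response genes were higher in 18 of 26 and lower in 3, with a median of 0.31. Creb3l1 and Creb3l2, membrane-bound activators of secretory genes, had 1.59 and 1.41. The cargo coat gene Sec24d and the retrieval receptor gene Kdelr3 had 1.15 and 1.15, while the stress genes Herpud1 (-0.69) and Ddit3 (-0.41) were lower.

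Of 17 apoptosis regulators, 8 were higher and 6 lower, with a median of 0.14. Bmf, which encodes a BH3-only protein, had 17.8 and 17.8 FPKM in the untreated libraries and 45.6 and 37.2 FPKM in the 8 h libraries (1.17 ± 0.0865 (SE), adjusted p = 8.6e-05). Gadd45g had 1.39, and Bcl2l1, which encodes the survival protein Bcl-xL, -0.77. Interferon response genes were lower in 6 of 12 tested and higher in 3, with a median of -0.16. Mx1, an antiviral GTPase, went from 6.03 and 6.29 FPKM without TGF-β to 0.534 and 0.789 FPKM at 8 h (-2.11 ± 0.0924 (SE), adjusted p = 2.81e-05), and Oasl2 rose by 0.81 from under 1 FPKM.

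Luminal and secretory epithelial genes were lower in 6 of 7 tested and higher in 1, with a median of -0.58. Lcn2, which encodes lipocalin 2, had 44.0 and 44.0 FPKM in the untreated libraries and 10.0 and 15.2 FPKM in the 8 h libraries (-1.75 ± 0.156 (SE), adjusted p = 0.000168). Muc1, an apical mucin, fell by 1.27. Wfdc2, a secreted protease inhibitor, had 11.1 and 9.93 FPKM in the untreated libraries and 6.07 and 6.81 FPKM in the 8 h libraries (-0.63 ± 0.125 (SE), adjusted p = 0.00511). Lgals4, a galectin, had 210.3 and 204 FPKM in the untreated libraries and 147 and 169 FPKM in the 8 h libraries (-0.39 ± 0.0820 (SE), adjusted p = 0.0064). Of the 15 members, 8 were under the filter.

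Of 13 lamina genes, 3 were higher and 4 lower, close to the 22.4% and 32.1% over all tested genes. Their median of -0.06 turned to 0.00477 under quantile normalization and 0.02 after the 10 highest genes were left out of the totals. Lmnb1, which encodes lamin B1, was at 36.9 and 36.3 FPKM in the untreated libraries and 34.1 and 34.4 FPKM in the 8 h libraries and was not called (-0.09 ± 0.0529 (SE), adjusted p = 0.182). Its groups did not overlap, with both 8 h libraries lower, and after the 10 highest genes were left out of the totals the difference was 0.00126. Lbr, the lamin B receptor gene, had 29.0 and 29.1 FPKM in the untreated libraries and 15.2 and 16.5 FPKM in the 8 h libraries (-0.84 ± 0.0678 (SE), adjusted p = 0.000118), and Lmna, the lamin A/C gene, had 0.45. Emd, which encodes emerin, was not called (0.07, adjusted p = 0.287).

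Some genes that had moved at 8 h stood elsewhere at 24 h. Krt14 had 0.492 and 0.715 FPKM and Krt20 87.1 and 82.7 FPKM at 24 h, close to the untreated values (24 h minus 8 h -1.96 and -1.37, adjusted p = 4.54e-05 and 3.8e-05). Id3 was back at 71.4 and 75.4 FPKM (1.60, adjusted p = 1.78e-05), whereas Id2 remained low at 30.2 and 34.6 FPKM and Id1 fell further to 39.3 and 40.7 FPKM. Insig1 had dropped to 16.5 and 16.1 FPKM, under its untreated level.

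Other genes stood further from the untreated level at 24 h than at 8 h. Fn1 reached 486 and 503 FPKM at 24 h, Adam12 28.8 and 27.6 FPKM and Creb3l1 38.1 and 37.2 FPKM. Cdh1 was at 39.4 and 41.1 FPKM, Lgals4 at 4.18 and 4.87 FPKM and Lmnb1 at 19.5 and 17.6 FPKM, where each was called against 8 h (adjusted p = 9.77e-06, 6.78e-07 and 3.1e-05). Cdc6 was at 2.93 and 2.55 FPKM and Itga5 at 108 and 101 FPKM. Snai1, at 13.1 and 10.9 FPKM, and Junb, at 240.5 and 229 FPKM, stayed well above their untreated levels but below their 8 h values. Their 24 h minus 8 h differences were -0.29 and -0.18 (adjusted p = 0.0739 and 0.0363 by limma). The median difference from untreated cells of the 228 genes with a 2-fold rise was 1.37 at 8 h and 1.80 at 24 h, and that of the 258 genes with a 2-fold fall -1.29 and -1.65. The comparisons share their untreated libraries.

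**Figure D4:**
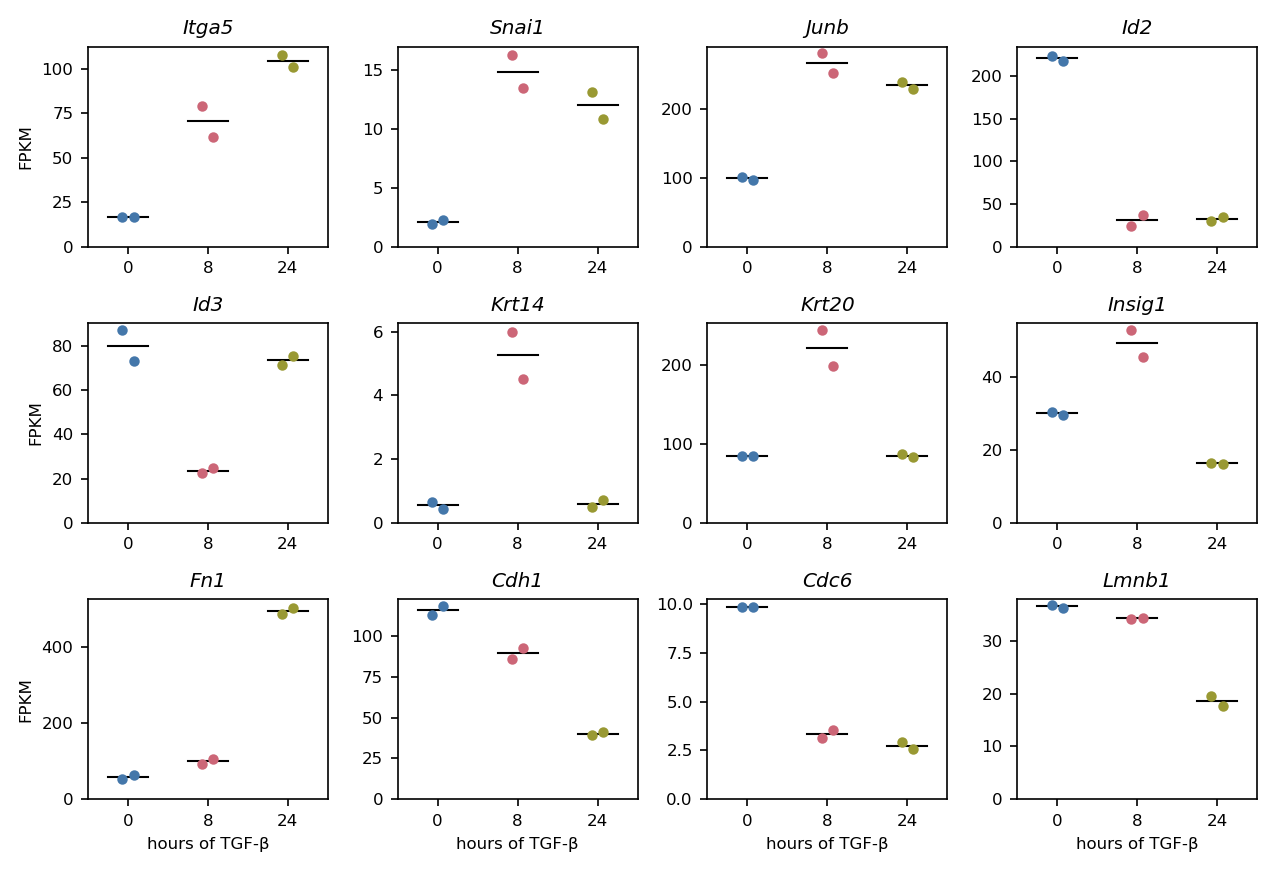
FPKM of 12 genes in parental cells after 0, 8 and 24 h of TGF-β, with 1 point per library and a line at the mean of 2. Id3, Krt14 and Krt20 are close to their untreated level again at 24 h, Id2 stays low and Snai1 high, and Fn1 and Lmnb1 move mainly after 8 h.

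Cells with a control shRNA gave the same comparison in libraries of their own, in a table normalized separately. Of 11450 genes tested there, 19.4% were called higher and 44.9% lower at 8 h. Of the 228 genes with a 2-fold rise in parental cells all were tested there, and 221 were called higher, 0 lower by limma (0 at an unadjusted p under 0.05) and 7 were not called. Of the 258 with a 2-fold fall, 246 were tested and 237 were called lower, 0 higher by limma (0 at an unadjusted p under 0.05) and 9 were not called. The median differences there were 1.72 and -1.57, against 1.37 and -1.29 in parental cells. Fewer genes were called in the same direction when all parental calls of any size were taken. Of 2507 parental rises tested there, 1652 (65.9%) were called higher, 78 lower and 777 were not called. Of 3561 parental falls tested there, 3110 (87.3%) were called lower, 22 higher and 429 were not called. Across the 11054 genes tested in both, r between the differences was 0.77, as a description, since genes are not independent replicates.

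Id2 had 389 and 379 FPKM in untreated control shRNA cells and 17.2 and 18.0 FPKM at 8 h, a difference of -4.37, and Snai1 had a difference of 3.52. Each of these was larger than in parental cells, and the difference between the 2 kinds of cells was not tested. Among the genes not called there were 7 small RNA genes, Acox2, Btg3, Dbn1, Gm3776, Gsta1, Ly6c1, Tnfaip2, Bmf (28.7 and 15.5 FPKM untreated and 22.2 and 21.0 FPKM at 8 h) and Ly6a (5.78 and 4.73 FPKM and 3.91 and 4.81 FPKM), which were singled out after their values were seen. Lcn2 and Saa3 were not tested there, with Lcn2 at 0.511 and 0.397 FPKM in untreated cells.

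Over all genes tested, the median difference was -0.14 in control shRNA cells and -0.05 in parental cells. Called lower were 44.9% and 32.1%, and called higher 19.4% and 22.4%. The list values that follow were not adjusted for this. By list, the control shRNA cells had 24 of 24 S-phase genes lower with a median of -0.76. Matrix genes were higher in 20 of 28 and lower in 4 (median 0.67), feedback regulators higher in 9 of 12 and lower in 3 (median 0.67), and cholesterol genes higher in 15 of 21 and lower in 2 (median 0.58). Epithelial transcription and splicing factors were lower in 8 of 9 (median -0.62) and actin and contractile genes higher in 18 of 23 (median 0.37). Counts lay further apart in other lists. Glycolysis genes had 12 of 17 higher and 2 lower there against 4 and 6 of 18 in parental cells, and apoptosis regulators 5 higher and 9 lower of 17 against 8 and 6. Ligands, receptors and Smads had 7 of 18 higher and 3 lower (median 0.12) against 13 and 2 (median 0.32), and YAP/TEAD genes 5 of 15 higher and 4 lower (median 0.08) against 10 and 2 (median 0.28). These lists were singled out after their values were seen, and none of the differences was tested.

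**Figure D5:**
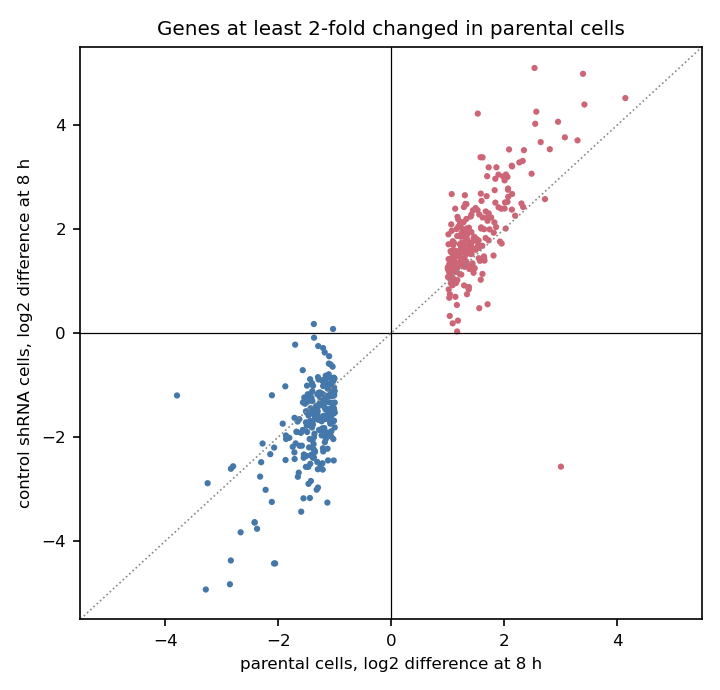
Difference at 8 h in control shRNA cells (vertical axis, log2) against that in parental cells (horizontal axis, log2) for 469 of the 474 genes changed at least 2-fold in parental cells and tested in both, with rises in red and falls in blue and the dotted line marking equal values. The 221 called rises and 237 called falls lie in the quadrants of equal direction, and 5 genes beyond the axes are not shown.

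Small RNA genes had the largest differences in the table and were kept out of the named genes. Snord104 was at 1888 and 1807 FPKM in untreated libraries and listed at 0 in both 8 h libraries, and Mir684-1 was listed at 0 in both untreated libraries and at 1159 and 756 FPKM at 8 h. In control shRNA cells Snord104 was at 1742 and 1216 FPKM without and 1666 and 3649 FPKM with TGF-β. An exact 0 in a table of FPKM can be a failed estimate, so no fold is given. Of the 486 genes changed at least 2-fold, 28 had names of small RNAs, predicted genes or clone transcripts.

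Peaks at promoters came from single ATAC-seq and lamin B1 ChIP-seq libraries per time point, counted within 500 bp of the gene start on mm9. Of the placed genes with a 2-fold rise, 32.3% (95% Wilson interval 26.5 to 38.7%, 72 of 223) had an ATAC peak in untreated cells, against 25.2% (20.3 to 30.9%, 64 of 254) of those with a 2-fold fall and 56.4% of all tested genes. At 8 h the shares were 29.6%, 19.7% and 46.1%. The genes with a 2-fold rise had a lower median in untreated cells, 4.69 FPKM against 12.9 FPKM over all tested genes, and those with a 2-fold fall 10.7 FPKM. Among genes with an untreated mean of at least 10 FPKM, the ATAC shares in untreated cells were 45.7%, 36.8% and 64.1%, an added comparison chosen after the first shares were seen.

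Lamin B1 peaks lay at 23.3% of the promoters of genes with a 2-fold rise, 20.9% of those with a 2-fold fall and 26.9% of all tested genes in untreated cells, and at 42.6%, 29.1% and 46.4% at 8 h. Among genes with an untreated mean of at least 10 FPKM, the lamin B1 shares in untreated cells were 30.9%, 21.8% and 31.0%. At 8 h they were 51.9%, 30.8% and 51.0%, so there the rises stood level with all tested genes. This too is an added comparison. Among the 12 largest rises, an ATAC peak lay at the start of 4 genes in untreated cells and of 4 at 8 h. The shares over all tested genes were 56.4% and 46.1%. Those in untreated cells included Gpr123, Snai1 and Gadd45a. Snai1 had an ATAC and a lamin B1 peak listed in untreated cells and neither at 8 h. The Id2 promoter, on chromosome 12, had an ATAC peak listed at 8 h and none in untreated cells, from 25780745 to 25781550 (score 55.0 in the authors' file). For scale, 8 h ATAC peaks scored 51.8 at Cdk1 and 262 at Zyx, so the Id2 peak was a low one. With 1 library per time point, these peaks have no replicate check.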

How the data were processed

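Parental NMuMG cells were compared after 8 h of TGF-β (2 RNA-seq libraries) and without it (2 libraries), and the paper's methods call such libraries biological replicates. Where libraries share a culture, the p-values measure the spread between these samples only. The authors deposited FPKM per gene without counts, on mm9, and the submitters' processing notes name Bowtie, TopHat and Cufflinks without versions. Peak files hold the authors' peak positions on mm9 with a deposited score, 1 library per track. All columns of the expression tables used were mapped to samples, and 0 were left unmapped. The columns have no headers and were mapped to groups only, so library numbers follow column order and are names. FPKM tables give no total counts, so depth was estimated only relative to 1 library from the steps between low values, and no counting error can be given for a gene.

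From these, log2(FPKM + 1) of genes that reached 1 FPKM in 2 or more libraries was fitted with limma 3.58.1 (R 4.3.3), all 6 parental libraries in one fit with 3 residual degrees of freedom, trended variance and Benjamini-Hochberg adjustment over the 11309 genes tested, and calls were made at an adjusted p under 0.05. With 2 libraries against 2 an exact permutation test cannot reach that threshold, so none is given. The 12 libraries of the shRNA table were fitted separately. Figures and counts used Python 3.11.15, pandas 2.3.3, numpy 2.4.6, scipy 1.17.1 and matplotlib 3.10.9. Wilson intervals for promoter peaks (95%) cover counting error only.

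The genes named were the 12 largest rises and the 12 largest falls among called genes with groups that did not overlap and a higher mean of at least 5 FPKM, leaving out small RNA, Gm and Rik names, up to 4 called members of each list with the largest change and a higher mean of at least 2 FPKM, and genes the study names. Other list members are named to describe a list and were chosen after their values were seen. Some genes taken by these rules are not reported here. The comparison and the gene lists were chosen with earlier results of these data known. Alternatives were another pseudocount (0.1), no filter, 3 scalings, a fit of the 4 libraries alone, no variance trend, each library left out, a promoter window of 2500 bp and peaks at or above the median score.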

Additional observations from a re-analysis of the deposited data

Results flagged for a closer look

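Wfdc2, a secreted protease inhibitor of the luminal list, moved in opposite directions in the parental and the control shRNA cells. In parental cells it had 11.1 and 9.93 FPKM in the untreated libraries and 6.07 and 6.81 FPKM in the 8 h libraries, a difference of -0.63 (adjusted p = 0.00511 by limma). In control shRNA cells it had 16.2 and 17.2 FPKM untreated and 23.6 and 25.6 FPKM at 8 h, a difference of 0.53 (adjusted p = 0.000356 by limma). Both 8 h libraries lay below both untreated ones in parental cells and above them in control shRNA cells. The 2 tables were normalized separately and the difference between them was not tested.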

How the results depend on the processing

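Of the 126 named genes, 126 kept their direction and side of the threshold with a pseudocount of 0.1, quantile normalization, median of ratios scaling, a fit of the 4 libraries alone and no variance trend. The exceptions under the other alternatives were Ddx58, Twist1, Lmnb1 and Emd. Ddx58, an RNA sensor, lost its call without the filter (adjusted p by limma 0.0774) and without untreated replicate 1, untreated replicate 2 or 8 h replicate 2 (0.142, 0.058 and 0.110). Twist1 turned to 0.0118 without 8 h replicate 2 and was called at -0.36 without 8 h replicate 1. After the 10 highest genes were left out of the totals, Lmnb1 turned to 0.00126 and Emd was called at 0.16. List medians turned under quantile normalization for Notch genes (0.0528), glycolysis (0.0663) and lamina genes (0.00477). With a pseudocount of 0.1, 777 genes were called at the 2-fold level, 368 higher and 409 lower, since low genes then show larger differences. Leaving out 1 library gave 4727 to 5880 called genes, 2012 to 2338 higher and 2715 to 3542 lower. At the 2-fold level it gave 383 to 620, 190 to 279 higher and 193 to 341 lower, the lowest without 8 h replicate 1 and the highest without 8 h replicate 2. The lone library left in a group is assumed to vary like the others. Promoter peak shares moved when only peaks at or above the median score were counted, to 14.8% and 12.2% for ATAC peaks in untreated cells, while the share over all tested genes went to 36.1%. The cause of these shifts was not tested except where stated. No paired analysis was possible because the columns of the tables have no headers. The sample titles carry numbers, and the labels of the shRNA table list its libraries, but a column could be tied to a number only by its order. Depth limits low genes most, and no count behind an FPKM is known.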
